A study of Mus musculus with 76 samples.

Results

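Pnoc, Tac1, Cck, Vip, Pthlh and Penk are 6 of the 35825 gene rows of the count table, taken by gene symbol because each encodes the precursor of a peptide that interneurons release. Neuropeptide precursors enter the secretory pathway, are cut and trimmed into short peptides, and are packed into dense-core vesicles, from which they act on G protein-coupled receptors over longer distances and times than GABA does. In the hippocampus, Cck and Vip are best known from interneurons of the caudal ganglionic eminence (CGE), Tac1 from parvalbumin cells of the medial ganglionic eminence (MGE), and Pnoc and Penk from subsets of several interneuron classes. Pthlh has been described in fast-spiking parvalbumin cells.

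The series holds 76 Patch-seq cells, each the aspirated contents of 1 neuron in an acute slice of dorsal CA1 at postnatal day 4, sequenced from a Nextera XT library. All carried the Nkx2.1 Cre: Ai14 TdT background, in which the Cre marks MGE descendants with TdTomato, and all lay in the pyramidal cell layer, where the labels expect many future parvalbumin basket cells. The mutant (Mut) mice carried gephyrin S268/270A, in which serines 268 and 270 of this scaffold of inhibitory synapses are replaced by alanine, and the WT mice carried unchanged gephyrin. The groups compared were 19 Mut female, 9 WT female, 15 Mut male and 19 WT male cells, 62 in all, after 9 cells that the authors' filter removed and 5 WT cells (1 female, 4 male) marked as contaminated were set apart. No animal, litter or batch is named, so cells are not replicates of a genotype and a difference between groups cannot be told apart from one between a few animals.

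The 62 cells held 2946456 to 12070780 counts, with a median of 6227716 in Mut and 6450035 in WT cells. Levels in a cell are counts scaled to a common cell total (CPM), and a cell is said to carry a gene from 10 CPM upwards. The MGE interneuron transcription factor Lhx6 was carried by 57 of the 62 cells and Gad1, the GABA-synthesising enzyme, by 58, both together by 55. Markers of neighbouring cells were also present. At least 1 of 12 pyramidal neuron markers was carried by 24 of 34 Mut and 22 of 28 WT cells, and at least 1 of 11 microglia markers by 10 Mut and 14 WT cells. Of 9 CGE markers, Htr3a was carried by no cell and Prox1, a CGE transcription factor, by 7 cells, all Mut. Prox1 was also at 55.4, 28.4 and 31.6 CPM in 3 of the 4 marked WT male cells.

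The 6 precursors differed widely in level. Per transcript length, in the deposited TPM (transcript abundance scaled to a common total), the median over the 62 cells was 794 for Cck, 14.1 for Tac1, 1.86 for Pnoc and 0.263 for Penk, while Vip and Pthlh had a median of 0. Neighbours in this order overlapped: Cck was above Tac1 in 46 of 62 cells, Tac1 above Pnoc in 47 and Pnoc above Penk in 47. Cck was the leading member by TPM in 39 cells, Tac1 in 16, Pnoc in 5 and Penk in 2. Cck was carried by 46 of the 62 cells, Tac1 by 30, Pnoc by 28 and Penk by 8, while Vip and Pthlh were each carried by 1 cell.

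**Figure D1:**
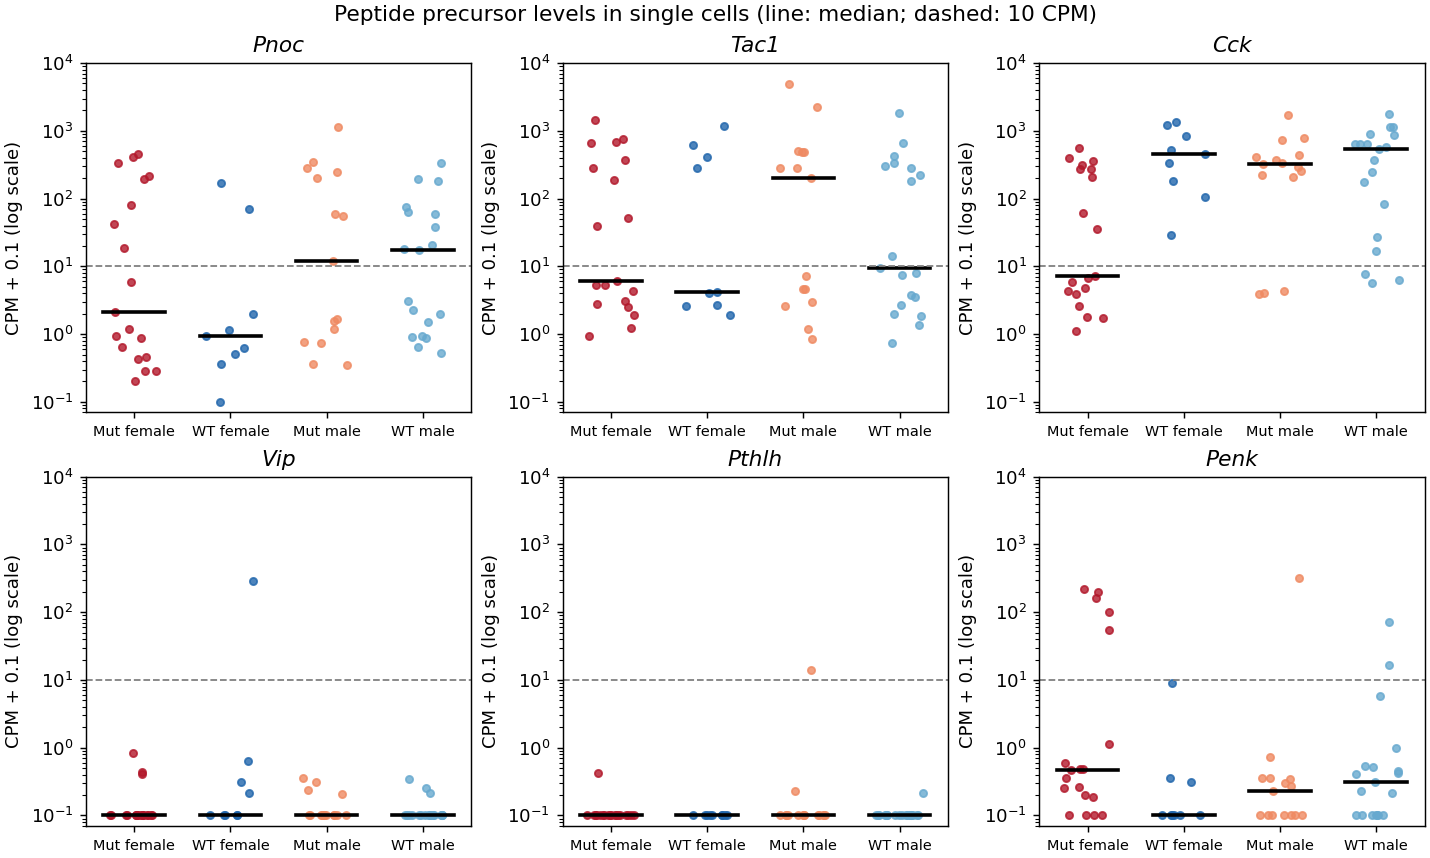
Level of each precursor in each of the 62 cells, as CPM plus 0.1 on a log axis, by genotype and sex, with the group median as a line and 10 CPM as a dashed line. Tac1 split into a high and a low set in every group, Cck was low in 10 of 19 Mut female cells and in none of 9 WT female cells, and Vip and Pthlh stood above 10 CPM in 1 cell each.

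The start regions of the genes are shown for the 2 most often carried precursors and for Vip, which was seen in a single cell. They are shown because all 3 hold the same short element. A start region was matched for 4 of the 6 members, not for Pnoc or Penk, which were therefore not searched. Each run is 250 bases before to 50 bases after the RefSeq gene start (GRCm38.p6), 5′ to 3′ on the gene's strand. Capitals mark TGACG or its reverse complement CGTCA, the letters with which the cyclic AMP response element TGACGTCA begins.
Tac1 (chr6:7554811-7555110, plus strand): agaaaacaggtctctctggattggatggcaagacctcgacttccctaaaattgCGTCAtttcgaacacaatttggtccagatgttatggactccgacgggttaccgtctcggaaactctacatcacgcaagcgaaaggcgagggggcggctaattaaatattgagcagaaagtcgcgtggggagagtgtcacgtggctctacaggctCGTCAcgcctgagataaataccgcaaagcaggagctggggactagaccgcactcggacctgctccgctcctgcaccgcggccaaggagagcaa
Cck (chr9:121495645-121495944, minus strand): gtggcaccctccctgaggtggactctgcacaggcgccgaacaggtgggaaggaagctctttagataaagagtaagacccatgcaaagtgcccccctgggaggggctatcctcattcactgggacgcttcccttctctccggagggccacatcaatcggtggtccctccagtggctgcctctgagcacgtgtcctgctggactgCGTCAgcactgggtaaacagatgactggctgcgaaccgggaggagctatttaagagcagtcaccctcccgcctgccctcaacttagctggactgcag
Vip (chr10:5638968-5639267, plus strand): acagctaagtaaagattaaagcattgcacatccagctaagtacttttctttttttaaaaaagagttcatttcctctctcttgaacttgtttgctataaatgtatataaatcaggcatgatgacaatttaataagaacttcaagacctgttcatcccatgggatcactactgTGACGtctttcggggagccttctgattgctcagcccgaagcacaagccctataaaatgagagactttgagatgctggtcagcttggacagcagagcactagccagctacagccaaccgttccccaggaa
TGACG, searched on both strands, occurs in 20.8% of the 32851 RefSeq start regions of this length, and the whole element TGACGTCA in 1.79%. The whole element is in none of these 3 runs, and the start region of Pthlh (chr6:147263964-147264263, minus strand) holds neither. TATAAA, also searched on both strands, is in the Vip run alone among the 4 regions and in 13.6% of all. These matches are letters in a window and say nothing of binding in these cells. In the GRCm38 annotation the 6 protein-coding genes span chr14:65400673-65425472 (Pnoc, minus strand), chr6:7554879-7565834 (Tac1, plus), chr9:121489824-121495694 (Cck, minus), chr10:5639218-5647617 (Vip, plus), chr6:147252101-147264183 (Pthlh, minus) and chr4:4133531-4138819 (Penk, minus).

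Pnoc encodes prepronociceptin, the source of nociceptin, a peptide of the opioid family that acts on its own receptor, Oprl1. Its cells ranged from 0.106 to 453 CPM (median 2.01) in Mut females, against 0 to 171 CPM (median 0.853) in WT females. In males they ranged from 0.249 to 1140 CPM (median 11.9) in Mut, against 0.427 to 337 CPM (median 17.5) in WT. The 4 groups overlapped over most of their range, and only the top of the Mut ranges lay above the WT cells. Pnoc was carried by 8 of 19 Mut female cells (42.1%, exact Clopper-Pearson 95% interval 20.25 to 66.5%) and 2 of 9 WT female cells (22.2%, 2.81 to 60.0%), and by 8 of 15 Mut male and 10 of 19 WT male cells. Among the carriers the median was 208 CPM in the 16 Mut cells and 67.3 CPM in the 12 WT cells, and 10 Mut cells against 4 WT cells reached 100 CPM. These intervals, like all others here, cover counting error only and take cells as independent draws, although cells of the same unnamed animal are not.

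When the cells of each genotype and sex were summed into 4 libraries, Pnoc stood at 81.4 CPM in Mut against 23.9 CPM in WT females, and at 195 CPM in Mut against 43.1 CPM in WT males (CPM scaled by TMM, edgeR's correction for library composition). The log2 fold change over both sexes, Mut over WT, was 1.98 (SE 0.56, edgeR quasi-likelihood test, unadjusted p = 0.0198, adjusted p = 1). A single cell held much of each of 2 sums. Mut male cell 12, at 1140 CPM, gave 59.9% of the Mut male Pnoc counts, and WT female cell 5, at 171 CPM, gave 62.0% of the WT female ones. Without Mut male cell 12 the log2 ratio within males was 1.01 in place of 2.16, and without WT female cell 5 that within females was 2.88 in place of 1.73 and the fold change over both sexes was 2.59. Mut male cell 12 also had 290 CPM of Prox1 and 12.4 CPM of Lhx6.

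Cells with Pnoc carried inhibitory neuron markers, as did most of the 62 cells, and had high Npy. All 28 carriers also carried Lhx6 and Gad1, beside 55 of all 62 cells. Npy, the gene of neuropeptide Y, was carried by 26 of the 28 and by 28 of the 34 others. The pyramidal neuron markers Neurod6 and Slc17a7 were carried by 12 and 9 of the 28, beside 31 and 22 of all 62 cells. The median of Npy was 730 CPM in the Mut female cells with Pnoc and 331 CPM in those without, and in WT females it was 720 CPM with and 85.4 CPM without. In Mut males the medians were 775 CPM with Pnoc and 122 CPM without, and in WT males 431 CPM with and 68.5 CPM without. Cells with Pnoc thus had the higher Npy median in each of the 4 groups, though only 2 WT female cells carried Pnoc. The ranges overlapped, with 5234 CPM as the highest with Pnoc and 6591 CPM without. Prox1 was carried by 5 of the 28 Pnoc cells and by 2 of the 34 others, all of them Mut. The summed level of the 9 CGE markers ranged from 0.614 to 1762 CPM in Mut and from 1.07 to 1181 CPM in WT cells, and the part of these markers in the Pnoc difference was not tested.

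Penk encodes proenkephalin, the source of the enkephalins, which act on the delta and mu opioid receptors. It was near 0 in most cells, with medians of 0.373 CPM in Mut females, 0 in WT females, 0.129 CPM in Mut males and 0.217 CPM in WT males. The carriers were 5 of 19 Mut female cells at 219, 197, 164, 99.9 and 54.4 CPM, 0 of 9 WT female cells (3 of 9 would be 33.3%, exact upper limit 33.6%), 1 of 15 Mut male cells at 324 CPM, and 2 of 19 WT male cells at 72.5 and 16.4 CPM. The highest WT female cell was at 8.86 CPM, so 5 Mut female cells lay above all WT female cells and the other 14 overlapped with them. Penk overlaps an antisense transcript on the plus strand in the GRCm38 annotation, and whether the counting used strand is not given in the sources used here, so reads of this pair cannot be told apart.

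In the sums Penk stood at 38.7 CPM in Mut against 1.62 CPM in WT females and at 13.4 CPM in Mut against 3.50 CPM in WT males. The fold change over both sexes was 3.26 on the log2 scale (SE 1.58, edgeR, unadjusted p = 0.0994, adjusted p = 1). Mut male cell 3 gave 99.2% of the Mut male counts. This cell had 3.08 CPM of Lhx6, 2.78 CPM of Gad1, 114 CPM of Prox1 and 1694 CPM of Cck. It thus carried neither Lhx6 nor Gad1, though it carried 4 of the 12 MGE markers, Gad2 among them. Without it the log2 ratio within males was -2.01 in place of 1.68 and the fold change over both sexes was -0.14. Without WT male cell 3 the ratio within males was 2.47, and without WT female cell 9 the ratio within females was 5.26 in place of 3.92 and the fold change over both sexes 5.60. Restricted to the 55 cells with Lhx6 and Gad1, it was -0.19 (edgeR, unadjusted p = 0.975). All 5 Mut female carriers had both of these markers, and 4 of them also carried Pnoc.

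Tac1 encodes the preprotachykinin that gives substance P and neurokinin A, ligands of the tachykinin receptors. Its levels split into a high and a low set, since 27 of the 62 cells stood at 100 CPM or more, 32 below 10 CPM and only 3 between. The range was 0.837 to 1442 CPM (median 6.07) in Mut females, against 1.82 to 1176 CPM (median 4.07) in WT females. In males it was 0.747 to 4833 CPM (median 199) in Mut, against 0.642 to 1842 CPM (median 9.32) in WT. The groups overlapped, and 2 Mut male cells, at 4833 and 2234 CPM, stood above every WT cell. The carriers were 9 of 19 Mut female, 4 of 9 WT female, 8 of 15 Mut male and 9 of 19 WT male cells, with medians among carriers of 486 CPM in Mut and 332 CPM in WT.

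Tac1 in the sums was at 203 CPM in Mut against 285 CPM in WT females, a log2 ratio of -0.49, and at 618 CPM in Mut against 197 CPM in WT males, a log2 ratio of 1.65. The difference between the sexes has no test, since each group is 1 sum. Over both sexes the fold change was 0.58 (SE 0.64, edgeR, unadjusted p = 0.412, adjusted p = 1). Mut male cell 8 gave 44.8% of the Mut male counts and WT male cell 11 gave 48.1% of the WT male ones. Without Mut male cell 8 the ratio within males was 0.88, and without WT male cell 11 it was 2.49. The ratio within females was -0.00 without WT female cell 3, the highest of that group.

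Cells with Tac1 were rich in Cort, the gene of cortistatin, a peptide related to somatostatin. Cort was carried by 20 of the 30 cells with Tac1 and by 9 of the 32 without. Its median was 42.8 CPM with Tac1 and 1.003 CPM without in Mut females, and 117 CPM with and 0.233 CPM without in WT females. In Mut males it was 49.3 CPM with and 1.28 CPM without, and in WT males 43.6 CPM with and 0.793 CPM without, so the order was the same in all 4 groups. Npy did not have this order, with a median of 178 CPM in the cells with Tac1 and 406 CPM in those without.

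**Figure D2:**
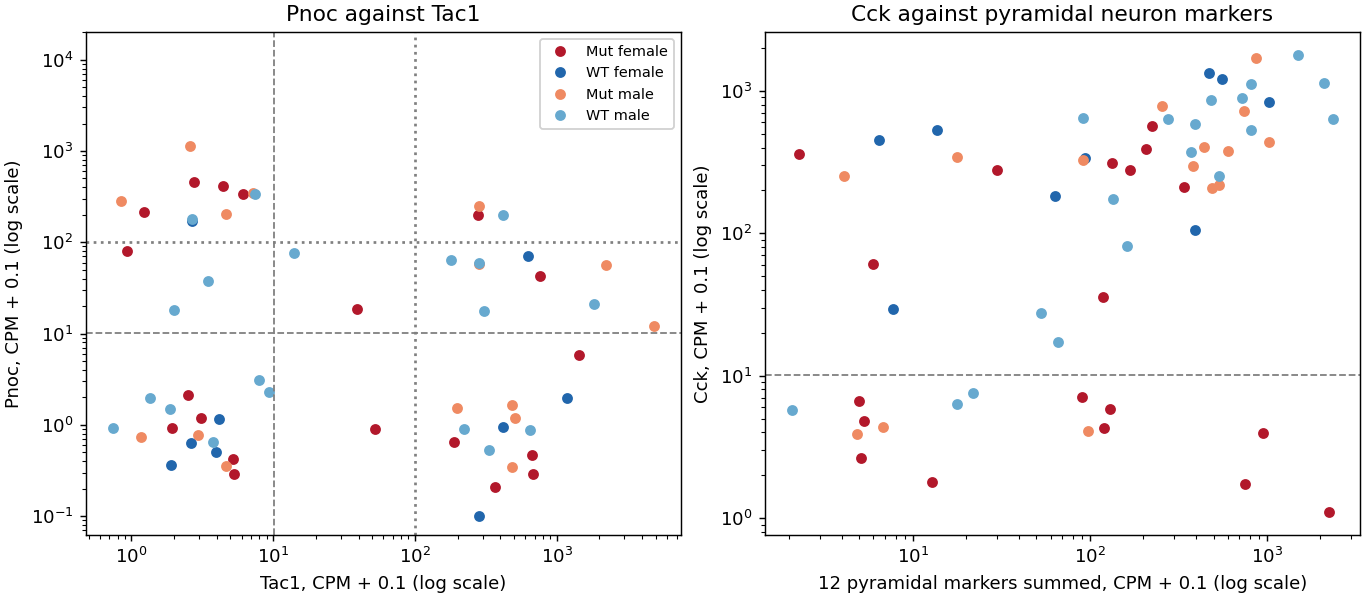
Left, Pnoc against Tac1 in the 62 cells, and right, Cck against the sum of 12 pyramidal neuron markers, all as CPM plus 0.1 on log axes, coloured by group, with 10 CPM dashed and 100 CPM dotted. At 100 CPM 14 cells had Pnoc and 27 had Tac1, and 3 had both. Cells with more pyramidal marker counts tended to have more Cck (Spearman rho 0.50 over 62 cells), with 3 Mut female cells at the lower right.

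Cck encodes the precursor of cholecystokinin, which is made by CGE basket cells and, as a transcript, also by pyramidal neurons. Its range was 1.01 to 565 CPM (median 7.01) in Mut females, against 29.1 to 1336 CPM (median 455) in WT females. In males it was 3.77 to 1694 CPM (median 328) in Mut, against 5.64 to 1785 CPM (median 535) in WT. Mut females stood lowest, with 10 of 19 cells below every WT female cell, and 3 of 15 Mut male cells lay below every WT male cell while the other 12 overlapped with them. Cck was carried by 9 of 19 Mut female cells (47.4%, exact Clopper-Pearson 95% interval 24.45 to 71.1%) and 9 of 9 WT female cells (100%, 66.4 to 100%), and by 12 of 15 Mut male (80%, 51.9 to 95.7%) and 16 of 19 WT male cells (84.2%, 60.4 to 96.6%). The median among carriers was 328 CPM in Mut and 535 CPM in WT cells.

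In the sums Cck was at 121 CPM in Mut against 634 CPM in WT females and at 350 CPM in Mut against 499 CPM in WT males, log2 ratios of -2.38 and -0.51. The fold change over both sexes was -1.45 (SE 0.58, edgeR, unadjusted p = 0.0586, adjusted p = 1). No single cell decided it: with each of the 62 cells left out in turn it lay between -1.57 and -1.36.

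Cck moved with pyramidal neuron markers across cells. Of the 46 cells with at least 1 of the 12 markers, 38 carried Cck, and of the 16 cells with none, 8 did. The summed level of the list ranged from 2.19 to 2251 CPM (median 120) in Mut females and from 6.33 to 1033 CPM (median 93.9) in WT females. In males it ranged from 3.97 to 1030 CPM (median 383) in Mut and from 1.98 to 2347 CPM (median 372) in WT. Wfs1, a marker of CA1 pyramidal neurons, was carried by no cell of either female group. Low Cck in Mut females was seen with and without these markers. Cck was in 6 of 13 Mut female cells that had a pyramidal marker and in 3 of 6 that had none. In WT females it was in 6 of 6 and 3 of 3. Among males with a marker, 10 of 11 Mut and 16 of 16 WT cells carried Cck, and with none, 2 of 4 Mut and 0 of 3 WT cells. Over both sexes, 5 of 10 Mut and 3 of 6 WT cells with no marker carried it. Of the 10 Mut female cells below 10 CPM of Cck, 7 carried both Lhx6 and Gad1. The cells with none of the markers still included Cck at up to 361 CPM in Mut and 530 CPM in WT. In the sums, 6 of the 12 markers were lower and 2 higher in Mut in both sexes, with opposite signs for the other 4. Neurod6 was at 37.0 CPM in Mut against 113 CPM in WT females and at 205 CPM in Mut against 221 CPM in WT males. Slc17a6, a vesicular glutamate transporter gene, was at 1.36 CPM in Mut against 113 CPM in WT females and at 2.95 CPM in Mut against 19.4 CPM in WT males, and the transcription factor gene Neurod2 at 23.1 CPM in Mut against 40.2 CPM in WT females and at 40.2 CPM in Mut against 62.4 CPM in WT males. The sums of these 3 genes were thus lower in Mut beside Cck, while the vesicular glutamate transporter gene Slc17a7 was at 21.2 CPM in both female sums. The part of pyramidal transcripts in the genotype difference was not tested.

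Vip encodes vasoactive intestinal peptide, the mark of a CGE class that inhibits other interneurons. It was carried by 0 of 34 Mut cells (3 of 34 would be 8.82%, exact upper limit 10.3%) and by 1 of 28 WT cells. WT female cell 9 stood at 288 CPM and no other of the 62 cells exceeded 0.747 CPM, so this cell held 99.8% of the WT female sum of 2740 counts. This cell had 598 CPM of Lhx6, 1086 CPM of Gad1 and 157 CPM of Sst, while Gad2 was at 2.85 CPM. It carried 3 of the 12 MGE markers. Of the 9 CGE markers it carried 1, the cannabinoid receptor gene Cnr1 at 446 CPM, the highest level of the 62 cells, and the other 8, Prox1 and Nr2f2 among them, were below 1 CPM. It also had 455 CPM of Cck and 8.86 CPM of Penk.

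Pthlh encodes parathyroid hormone-related protein, a local signal read by the receptor Pth1r. Mut male cell 6 alone carried it, at 13.8 CPM, and this was the cell of greatest depth. The sums held 1 count in Mut females, 0 in WT females, 168 in Mut males and 1 in WT males. That cell also had 487 CPM of Tac1 and 328 CPM of Cck. Pthlh was carried by 0 of 28 WT cells (3 of 28 would be 10.7%, exact upper limit 12.3%).

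**Figure D3:**
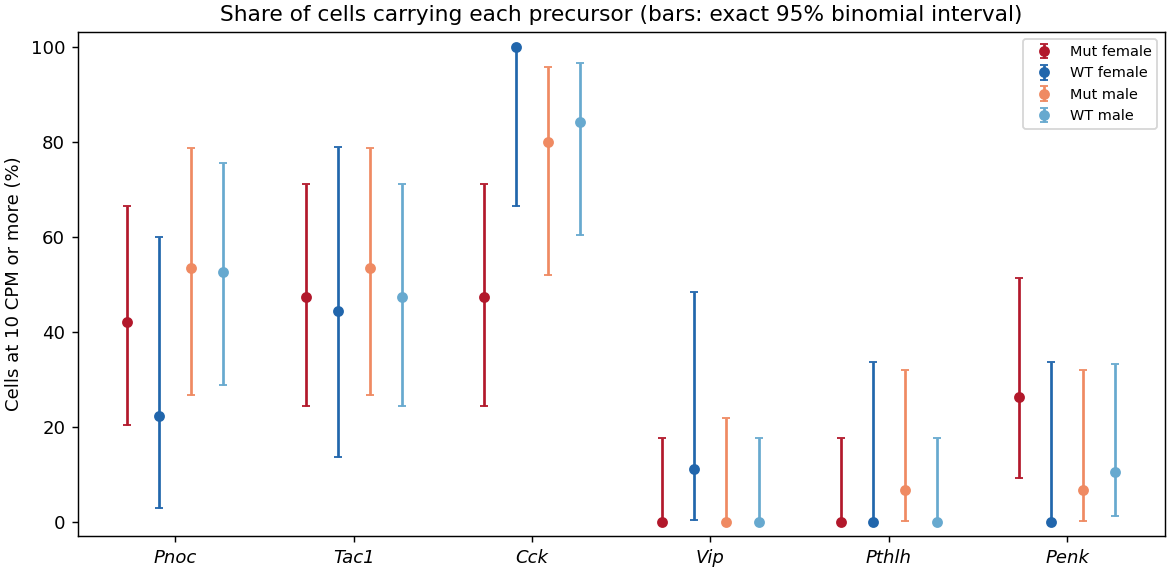
Share of cells at 10 CPM or more for each precursor in each group, with exact 95% binomial intervals that cover counting error only. The Cck share was 47.4% in Mut females and 100% in WT females, and the intervals of the genotypes overlapped for every precursor in both sexes.

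In the test across all genes, 4 of the 6 members passed the filter on low counts (Vip and Pthlh did not) and none of them passed at an adjusted p under 0.05, as was true of all 16435 genes tested (0%). At an unadjusted p under 0.05, 575 genes (3.5%), 273 higher and 302 lower, and 1 member (Pnoc) were found. DESeq2 called 666 of 14841 genes (4.49%), among them Penk (adjusted p = 0.0479), but not Pnoc (adjusted p = 0.208), Cck (0.529) or Tac1 (0.992). Pnoc and Penk were higher by 2-fold or more in Mut sums of both sexes, as were 5.11% of all genes. Within females Pnoc and Penk were past 2-fold higher (23.1% of all genes) and Cck past 2-fold lower (18.2%), and within males Pnoc, Tac1 and Penk were past 2-fold higher (16.7%) and no member past 2-fold lower (17.4%). Such ratios were therefore common in these sums.

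**Figure D4:**
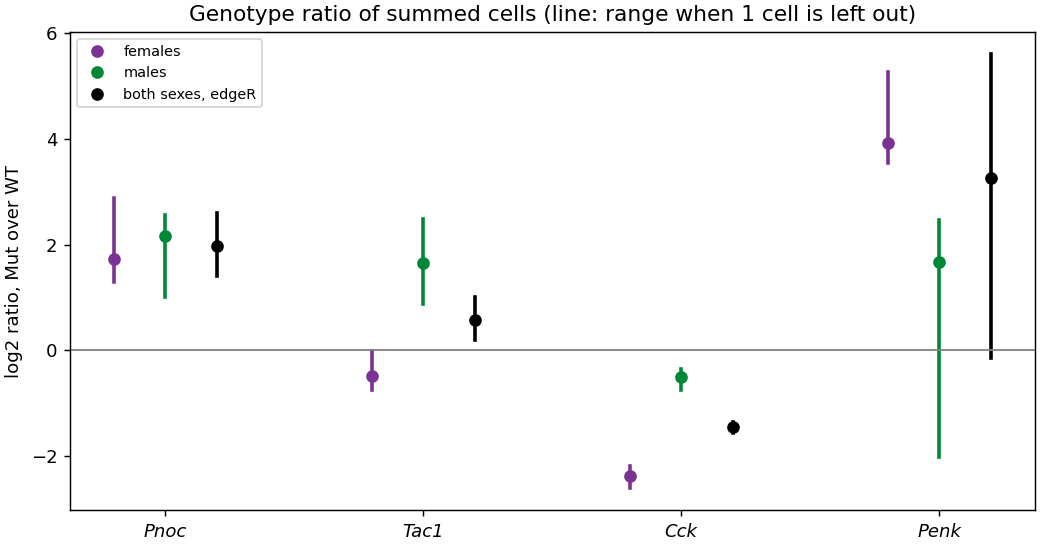
Log2 ratio of the summed cells, Mut over WT, within females, within males and over both sexes (edgeR), with a line for the range when each of the 62 cells is left out in turn. Pnoc stayed above 0 and Cck below 0 in all 3 comparisons, Tac1 had opposite signs in the sexes, and the Penk lines for males and for both sexes crossed 0.

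Most cells carried more than 1 precursor. At least 2 of the 6 were carried by 21 of 34 Mut cells (61.8%, exact 95% interval 43.6 to 77.8%) and 19 of 28 WT cells (67.9%, 47.65 to 84.1%), and 3 by 10 Mut and 6 WT cells. No cell carried more than 3. The 4 cells with none were Mut female cells 6, 15, 18 and 20. Cells 6 and 18 among them lacked Lhx6 or Gad1 at 10 CPM, and cell 20 carried 5 or more microglia markers. Cell 15 had 1393 CPM of Lhx6 and 4681 CPM of Npy.

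The most frequent combinations were Pnoc with Tac1 and Cck (6 Mut and 5 WT cells) and Tac1 with Cck (5 Mut and 6 WT cells). Cck alone was found in 2 Mut and 8 WT cells, and Tac1 alone in 4 Mut and 0 WT cells. Pnoc and Tac1 shared 14 cells at 10 CPM, or 50% of the Pnoc cells and 46.7% of the Tac1 cells, close to the 48.4% of all cells with Tac1. At 100 CPM they shared 3 cells of 14 with Pnoc and 27 with Tac1, namely Mut female cell 23, Mut male cell 2 and WT male cell 8. Tac1 was carried by 1 of the 8 Penk cells and by 29 of the 54 others, while Cck was carried by 6 of the 8 and Pnoc by 5 of the 8. The correlation of Tac1 with Penk was -0.41 (Spearman, 62 cells that share a library type and a similar depth, with most Penk values near 0).

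**Figure D5:**
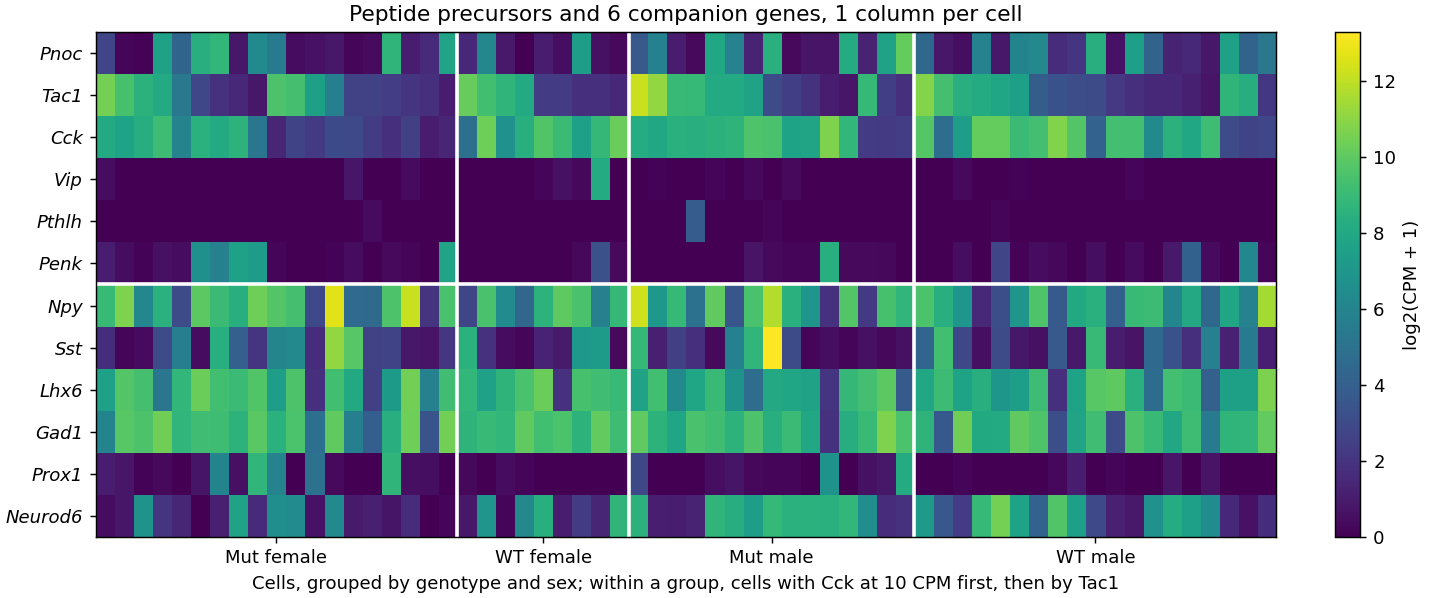
The 6 precursors (upper rows) and 6 companion genes (lower rows) in the 62 cells, 1 column per cell, as log2(CPM + 1), grouped by genotype and sex and ordered within a group by Cck at 10 CPM and then Tac1. Prox1 at 10 CPM is seen in Mut columns alone (7 cells), and Vip in 1 WT female column.

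The genes whose levels ran most like a member's were taken by Spearman rho over the 62 cells among 7960 genes. For Cck these were Crym (0.66), Itm2b (0.61) and Neurod6 (0.55), the last a transcription factor of pyramidal neurons. For Pnoc they were Smchd1 (0.61), Cebpz (0.47) and Mrpl37 (0.46), and for Tac1 Klhdc8b (0.53), Zfp983 (0.52) and Ptprf (0.51). Vip, Pthlh and Penk were carried by too few cells for this. The cells share 1 protocol and many low values, so these figures describe the libraries.

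Receptors for the members' peptides were sparse. Adcyap1r1, the PACAP receptor that also binds Vip weakly, was carried by 29 of 62 cells, the nociceptin receptor Oprl1 by 11, the delta opioid receptor Oprd1 by 6 and the substance P receptor Tacr1 by 2. Of the 13 receptors 11 were tested, with 0 past the adjusted threshold of edgeR and a median log2 fold change of 0.51 beside 0 for all genes. Adcyap1r1 stood at 142 CPM in Mut against 104 CPM in WT females and at 160 CPM in Mut against 51.2 CPM in WT males (log2 fold change 1.04, SE 0.57). Oprl1 was at 25.8 CPM in Mut against 41.8 CPM in WT females and at 12.5 CPM in Mut against 4.41 CPM in WT males. The 2 receptors at an unadjusted p under 0.05 in edgeR (3.5% of all genes), named after their values were seen, had lower sums in Mut. Vipr2, a receptor of Vip, was at 0.712 against 27.1 CPM in WT females and 0.07 against 14.6 CPM in WT males, and the mu opioid receptor Oprm1 at 0.213 against 7.20 CPM and 0.0613 against 3.43 CPM. Vipr2 was carried by 4 cells in all and Oprm1 by 3.

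The genes that process peptides differed widely in how many cells carried them. The trimming enzyme Cpe was carried by all 62 cells (median 1173 CPM), Pcsk1n, which encodes an inhibitor of the convertase Pcsk1, by 59, and Scg5, the chaperone of the convertase Pcsk2, by 56. Ctsl, a protease that can cut precursors, was carried by 38 cells, the amidating enzyme Pam by 30 and Pcsk2 itself by 28, while Pcsk1 was carried by 1. Furin, Tpst1, Tpst2 and Pcsk5, also on this list, were carried by 16, 14, 11 and 10 cells. Of 10 tested genes of 11 in this group none passed at either threshold in edgeR (median log2 fold change -0.13). Cpe was at 1476 CPM in Mut against 1153 CPM in WT females and at 1374 CPM in Mut against 1388 CPM in WT males. Pcsk2 was at 19.5 CPM in Mut against 333 CPM in WT females and at 67.4 CPM in Mut against 62.6 CPM in WT males.

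Most of the 12 genes of dense-core vesicles were broadly carried. Vamp2, the vesicle fusion protein, was carried by 60 cells, the priming factor Cadps by 52 and Syt4 by 51. The granin Scg2 was in 47 cells, Chga in 41 and Chgb in 39. Ptprn, Cadps2, Ptprn2 and Baiap3, lower on this list, were carried by 26, 16, 8 and 3. All 12 were tested and 0 passed the adjusted threshold of edgeR (median log2 fold change -0.02). The granin gene Chgb was at 240.0 CPM in Mut against 76.6 CPM in WT females and at 301 CPM in Mut against 107 CPM in WT males (log2 fold change 1.57, SE 0.42, unadjusted p = 0.0152, adjusted p = 1). Chga, by contrast, was at 235 CPM in Mut against 219 CPM in WT females and at 205 CPM in Mut against 204 CPM in WT males.

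Among 14 other peptide genes, Npy was carried by 54 cells, Cort by 29, Sst by 21, Nts, the neurotensin gene, by 15, and Crhbp, which encodes a protein that binds corticotropin-releasing hormone, by 9. Of the 11 tested, 0 passed the adjusted threshold of edgeR. An unadjusted p under 0.05, reached by 3.5% of all genes, was found for 3, Npy, Sst and Cartpt, with higher sums in Mut. Sst was carried by 11 of 34 Mut and 10 of 28 WT cells, and Npy by 29 and 25. Mut male cell 7 held 76750 of the 82531 Mut male Sst counts. Mut female cell 22 held 26090 of the 35063 Mut female Sst counts and 75180 of the 158051 Npy counts. In WT males, cell 20 held 22420 of the 49070 Npy counts. The median log2 fold change of the list was 3.02, which was the value of Sst, beside 0 for all genes. The genes above this median were Crhbp, Nmb, Grp, Pdyn and Cartpt, carried by 9, 5, 3, 3 and 2 of the 62 cells. The 2 highest values of the list were those of Cartpt (8.02) and Pdyn (5.85). Nmb, Grp, Pdyn and Cartpt were named after their values were seen. Cort had the same signs as Tac1, at 42.3 CPM in Mut against 71.3 CPM in WT females and at 107 CPM in Mut against 27.2 CPM in WT males. Nts was at 33.1 CPM in Mut against 27.4 CPM in WT females and at 38.8 CPM in Mut against 33.7 CPM in WT males. Marker lists were also counted at an unadjusted p under 0.05 in edgeR, a level reached by 3.5% of all genes. Higher in Mut were 1 of 12 MGE genes (Sox6) and 1 of 8 CGE genes (Prox1). Lower in Mut were 1 of 12 pyramidal genes (Slc17a6) and 1 of 9 astrocyte genes (Sox9). None of 11 microglia, 5 oligodendrocyte or 7 blood and vessel genes reached that level.

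The cells set apart also held Cck, Tac1 and Pnoc. Of the 9 cells that failed the authors' filter, Cck was carried by 7, Tac1 by 6 and Pnoc by 3. Of the 5 marked WT cells Cck was carried by 4 and Pnoc, Tac1 and Penk by 1 each. Vip and Pthlh were carried by none of them.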

How the data were processed

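Per the labels, single tdTomato-positive cells were aspirated and sequenced from Nextera XT libraries, and the submitters' processing notes name kallisto and GRCm38 with no version of the tool. Counts were deposited by the authors in the form of expected counts for each gene symbol, before and after an authors' filter whose criterion is not given in the sources used here, and the deposited normalized table holds TPM. Other samples, 52 before and 44 after the filter, have columns there that were not used.

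Cell CPM came from the deposited expected counts and each cell's total. Counts of the 62 kept, unmarked cells were summed by genotype and sex and rounded. The 4 sums were fitted with edgeR 4.0.16 (R 4.3.3, limma 3.58.1; quasi-likelihood, sex and genotype as terms, TMM factors 0.865 to 1.09, filterByExpr minimum count 10), which left 16435 genes, 1 residual degree of freedom and a biological coefficient of variation of 0.958. P-values were adjusted by Benjamini-Hochberg over all genes tested and measure the spread between sums, not animals. Ratios within a sex are log2 ratios of TMM-scaled CPM plus 1 CPM, with no test. Sums held 61480155 to 120477190 counts. No cell's profile was repeated, the highest Pearson correlation of log2 CPM between cells being 0.841. Shares of cells have exact Clopper-Pearson intervals, and a count of 0 is also given with a floor of 3 counts. PCR reads lack molecular identifiers, so several may stem from 1 molecule. Cell numbers follow the accession order within a group.

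Members and gene lists (receptors, processing, dense-core vesicle, other peptides and cell type markers) were chosen with earlier results of these data known. Named genes are the members, up to 6 of each list other than the markers by median CPM (passing over genes with a median of 0), and for members carried by at least 10 cells the 3 genes of highest Spearman rho, without Gm, Rik and ps names. Some genes of lower rank are also named, to give the low end of a list. Alternatives were DESeq2 1.42.0, other scaling, no filter, no sex term, other sets of cells and other limits.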

Additional observations from a re-analysis of the deposited data

Results flagged for a closer look

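In groups of 4 to 10 cells, 6 values stood apart from the rest of their group by Dixon's criterion. Its chance rate of about 1 in 20 groups is for normally distributed values. It does not hold for genes near 0 in most cells, where 1 carrying cell can meet the criterion. Pnoc was at 170.7 CPM in WT female cell 5 (gap to the next cell over the range 0.584, critical value 0.493 for 9 cells) while in WT female cell 9 Vip was at 288.2 CPM (0.998) and Penk at 8.86 CPM (0.971). Among the 4 marked WT male cells, Pnoc was at 130.4 CPM in cell 2 (0.994, critical value 0.829) and Tac1 at 78.8 CPM in cell 4 (0.935). Vip was at 0.264 CPM (1.6 expected counts) in marked WT male cell 2 and at 0 in the other 3. Tac1 had opposite log2 ratios, Mut over WT, in the sexes, -0.49 in females and 1.65 in males, and this difference was not tested. In 2 cells that the authors' filter removed, a precursor stood above every kept WT cell, Pnoc at 961 CPM in Mut female cell 7 (highest kept WT cell 337 CPM) and Tac1 at 4822 CPM in Mut female cell 9 (highest kept WT cell 1842 CPM).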

How the results depend on the processing

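Of the main results under the alternatives, 131 values kept their direction and side of the threshold or moved little, 19 moved, 1 reversed and 1 came past the threshold. The alternatives restricted to Lhx6 and Gad1 cells and without microglia-rich cells were added after the data were seen. Penk reversed to -0.19 with only Lhx6 and Gad1 cells, and with DESeq2 it was 3.25 and past the threshold. DESeq2 called 666 genes against 0 in edgeR. The cause was not tested.

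At 1 CPM the share of Mut cells was 94.1% for Tac1, 100% for Cck and 100% for at least 2 members, and of WT cells 64.3% for Pnoc, 96.4% for Tac1, 100% for Cck and 96.4% for at least 2 members (98.4% of all cells). At 100 CPM it was 29.4% for Pnoc and 0% for Pthlh in Mut, and 14.3% for Pnoc, 0% for Penk and 42.9% for at least 2 members in WT (48.4% of all cells). At 10 TPM it was 88.2% for Cck and 79.4% for at least 2 members in Mut, 100% for Cck in WT and 79.0% for at least 2 members in all cells.

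With each cell left out in turn, log2 fold changes over both sexes ranged from 1.40 to 2.59 for Pnoc, 0.20 to 1.002 for Tac1, -1.57 to -1.36 for Cck and -0.14 to 5.60 for Penk, with 0 to 0 genes called. Within females they were 1.30 to 2.88, -0.75 to -0.00, -2.61 to -2.19 and 3.54 to 5.26 in that order, with 2 to 2 members past 2-fold higher and 1 to 1 lower. Within males they were 1.01 to 2.55, 0.88 to 2.49, -0.75 to -0.35 and -2.01 to 2.47, with 2 to 3 higher and 0 to 1 lower. Vip and Pthlh could be fitted only without a filter. No paired analysis was possible because the labels give no replicate numbers shared between groups. Depth limits values near 0: a sum at 0 allows up to 0.0564 CPM in WT females.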
